A study of Mus musculus with 14 samples.

Results

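Mouse embryonic stem cells (ESCs) that carry Zfp281 were taken through an extraembryonic endoderm (XEN) differentiation, and what remained different from the starting ESCs at passage 3 is described here. The libraries compared are the passage 3 cells, labelled cXENp3, of the lines WT3 and Rescue3.34, each set against the ESC library of its own line. These are 4 of the 14 libraries of the series, and they were chosen by their labels. WT3 (cell line 3+/+) is wild type. Rescue3.34 is the Zfp281 knockout line 3.34-/- to which Zfp281 was returned, and the labels do not give the promoter of the returned gene or say whether the cells were a clone or a pool. All 4 libraries have the strain background 129S1/SVImJ. ESCs grew without feeders on gelatin in serum with leukemia inhibitory factor (LIF). For differentiation the cells were moved to XEN medium, which lists no LIF, and given retinoic acid at 0.01 µM with activin A at 10 ng/mL for 48 h, which is passage 1 (cXENp1). Passage 2 was spent on feeders, inactivated mouse embryonic fibroblasts, and passage 3 on gelatin again. The knockout lines KO3.34 and KO2.6 at the same 3 stages, and the established XEN lines XENB1 and XEN5, which grew on gelatin in medium conditioned by embryonic fibroblasts, serve as references. KO2.6 is named by its title, and its cell line field gives 2.26-/-. Each line gave 1 library a stage, so WT3 and Rescue3.34 are 1 line each. The p-values measure only the spread among the 12 libraries of the 4 lines, knockout lines included.

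Zfp281 is a zinc finger transcription factor of pluripotent cells. XEN cells are stem cells of the primitive endoderm lineage, which lines the yolk sac, and ESCs belong to the epiblast lineage, which forms the embryo. Fibroblast feeders secrete fibrillar collagens, decorin and periostin, so such transcripts are read here as possible feeder transcripts. Zfp281 itself (mm9, chromosome 1, 138521478 to 138526968) was listed at 28.5 and 27.7 FPKM in the WT3 and Rescue3.34 ESCs, at 25.1 and 27.2 FPKM at cXENp1 and at 34 and 38.6 FPKM at cXENp3. FPKM is fragments scaled to transcript length and to library size. In KO3.34 Zfp281 ranged from 1.29 to 3.96 FPKM and in KO2.6 from 0 to 0.559 FPKM over the 3 stages, so the labels of the Zfp281-present libraries match the level of the gene.

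Depth cannot be stated, since the values are FPKM without counts. FPKM sums ran from 424406 to 718138 over the 14 libraries, 14972 to 16831 genes were above 0, and no pair of libraries held identical values. The library descriptions start with JH for the ESCs of WT3, Rescue3.34 and KO3.34 and with XH for the other 11 libraries. In both Zfp281-present lines this prefix changes together with the stage, and the 2 cannot be told apart there.

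In most genes the Zfp281-present lines were near their ESC level at cXENp3. The genes that rose included Tagln, Thbs1, Lefty2, Zic2 and Stra8, and those that fell included Socs3, Trib3 and Crb3. Of 13191 genes tested, 151 differed from ESC (1.14%; limma, Benjamini-Hochberg adjusted p under 0.05), and 2527 had an unadjusted p under 0.05. Higher at cXENp3 were 69 genes (0.523%) and lower were 82 (0.622%), each in the same direction in both lines. The split was 82 higher and 39 lower with a pseudocount of 0.1, and 139 and 15 without WT3. On the log2(FPKM + 1) scale the called rises ran from 1.04 to 6.41 with a median of 1.89, and the called falls from -3.97 to -1.17 with a median of -1.83. Over all genes the median change was -0.01. The median FPKM of the 69 rises was 0.849 and 0.584 in the WT3 and Rescue3.34 ESCs, 13.8 and 13.0 at cXENp1 and 9.5 and 12.2 at cXENp3. Their median was below 1 FPKM in the starting cells and stood near its cXENp1 level 2 passages later. The ESC and cXENp3 medians come from the values that made the call. For the 82 falls the medians were 12.3 and 12.8 FPKM in ESCs, 1.43 and 1.61 FPKM at cXENp1 and 2.71 and 1.45 FPKM at cXENp3. No gene was called with the description prefix as a term (1226 at an unadjusted p under 0.05), without Rescue3.34 (511), on the 4 libraries alone, with 1 residual degree of freedom (2900), or over every gene with a value above 0 (3012). All 151 kept their direction in each of these fits, but only the prefix fit could have turned it. Over every gene and on the 4 libraries the estimate is the same mean of both lines, and without Rescue3.34 it is the WT3 change. The prefix term can be estimated only from the knockout lines, whose ESC libraries differ in line as well as in prefix. Without WT3 the count was 154, of which 26 were among the 151.

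The lines differed in how much change they kept. At cXENp1 the change from ESC reached an absolute log2 value of 1 in 3743 genes (28.4%) of WT3 and 3389 (25.7%) of Rescue3.34. At cXENp3 it did so in 772 genes (5.9%) of WT3, 2.92% higher and 2.93% lower, and in 2143 (16.2%) of Rescue3.34, 8.27% higher and 7.98% lower. WT3 therefore held fewer large changes than Rescue3.34 at passage 3, while their counts at passage 1 had been closer. The knockout lines had 4443 (18.5% higher and 15.2% lower) and 5795 (25.4% and 18.6%) such genes at cXENp3. Both Zfp281-present lines differed from their ESCs by at least 1 the same way in 261 genes that were higher (1.98%) and 287 that were lower (2.18%). Pearson's r between the changes of WT3 and of Rescue3.34 was 0.65 across the 13191 genes, which are not independent replicates and whose ESC libraries share a description prefix.

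**Figure D1:**
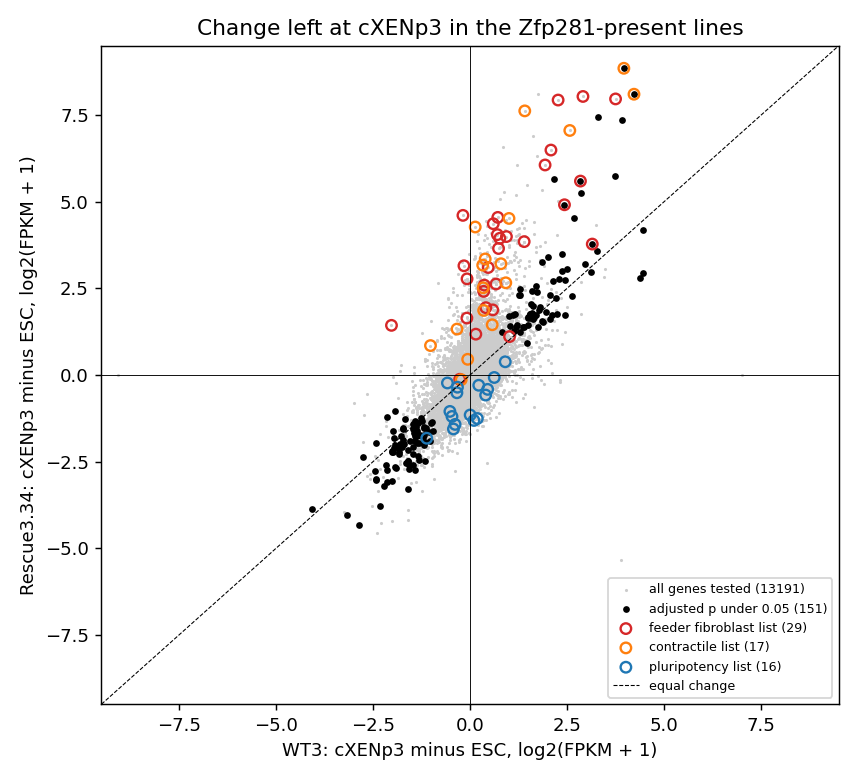
Change from ESC to cXENp3 in WT3 (horizontal axis) and Rescue3.34 (vertical axis), each as a difference of log2(FPKM + 1), for 13191 genes (grey), the 151 genes called (black) and 3 gene lists (open circles). The 29 feeder fibroblast genes all lie above the line of equal change, and the 16 pluripotency genes lie between -1.11 and 0.91 in WT3 and between -1.82 and 0.38 in Rescue3.34.

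The stage label was checked against the markers of both lineages. Core pluripotency genes were expressed again: all 16 listed genes had at least 1 FPKM in both cXENp3 libraries. None was called against ESC, beside 1.14% of all genes, a share at which a list this short would mostly hold no call. The median change was -0.48, with -0.16 in WT3 and -0.81 in Rescue3.34. The change was higher in Rescue3.34 than in WT3 in 1 of the 16, beside 44.5% of all genes. Their summed level was 7873 and 7936 FPKM in the WT3 and Rescue3.34 ESCs, 376 and 745 FPKM at cXENp1, and 8170.5 and 4288 FPKM at cXENp3. WT3 was back at its starting sum and Rescue3.34 stood lower. Pou5f1, the central POU factor of pluripotency, had 957 and 912 FPKM in ESCs and 1313 and 685 FPKM at cXENp3. Sox2, its partner, had 521 and 525 FPKM in ESCs and 399 and 195 FPKM at cXENp3, and the Rescue3.34 value is the lowest of these 4. Against cXENp1, 15 of the 16 genes rose (limma), beside 4.85% of all genes. Of 17 XEN genes, 0 were called against ESC (median 0.30), beside 1.14% of all genes. Gata4, a defining endoderm factor, was at 0.396 and 0.364 FPKM in ESCs and 1.11 and 0.230 FPKM at cXENp3, and at 326 and 430.2 FPKM in XENB1 and XEN5. Sox17 was at 0.306 and 0.0631 FPKM at cXENp3 and 206 and 153 FPKM in the XEN lines. The cells labelled cXENp3 in these 2 lines thus carried ESC markers and nearly no defining endoderm factors. Sparc, a secreted matrix protein that XEN cells and fibroblasts both make, was the XEN-listed gene with the largest change in Rescue3.34, from 30.9 to 475 FPKM, against 37.9 and 79.8 FPKM in WT3. Sparc, Col4a1, Col4a2, Lama1 and Lamc1 were listed at 0 in the knockout cXENp3 and XEN libraries beside high values elsewhere, so no fold is given against those libraries.

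Contractile, matricellular and collagen genes were among the largest residual rises. Tagln encodes transgelin, an actin-binding protein of smooth muscle and activated fibroblasts (mm9, chromosome 9, 45671774 to 45744141, an interval in the table that is wider than the gene itself). It was at 0.163 and 0.438 FPKM in the WT3 and Rescue3.34 ESCs, 172 and 150.3 FPKM at cXENp1 and 20.8 and 395 FPKM at cXENp3. Both ESC libraries were below all 4 later ones. WT3 had lost most of its cXENp1 level and Rescue3.34 exceeded it. The fit gave a log2 change of 6.17 (SE 0.89, limma adjusted p = 0.0357). Thbs1 encodes thrombospondin-1, a matricellular protein (mm9, chromosome 2, 117937658 to 117952869). Its level was 0.0231 and 0.0171 FPKM in ESCs, 14.1 and 16.6 FPKM at cXENp1 and 14.5 and 167 FPKM at cXENp3, a log2 change of 5.64 (SE 0.82, limma adjusted p = 0.0357). In WT3 the cXENp3 level of Thbs1 matched its cXENp1 level closely, while the Rescue3.34 level was higher than at cXENp1. Col1a1 encodes the alpha 1 chain of type I collagen (mm9, chromosome 11, 94797584 to 94813170). Its levels were 0.371 and 1.03 FPKM in ESCs, 8.50 and 2.37 FPKM at cXENp1 and 17.5 and 509 FPKM at cXENp3. The 2 lines were far apart at cXENp3, and the change missed the threshold, a log2 change of 5.86 (SE 1.14, limma adjusted p = 0.0607). The knockout cXENp3 libraries had 133 and 168 FPKM and XENB1 and XEN5 326 and 278 FPKM of Col1a1. Its level in Rescue3.34 was thus the highest of the 14 libraries and that in WT3 lay below all other cXENp3 and XEN libraries.

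**Figure D2:**
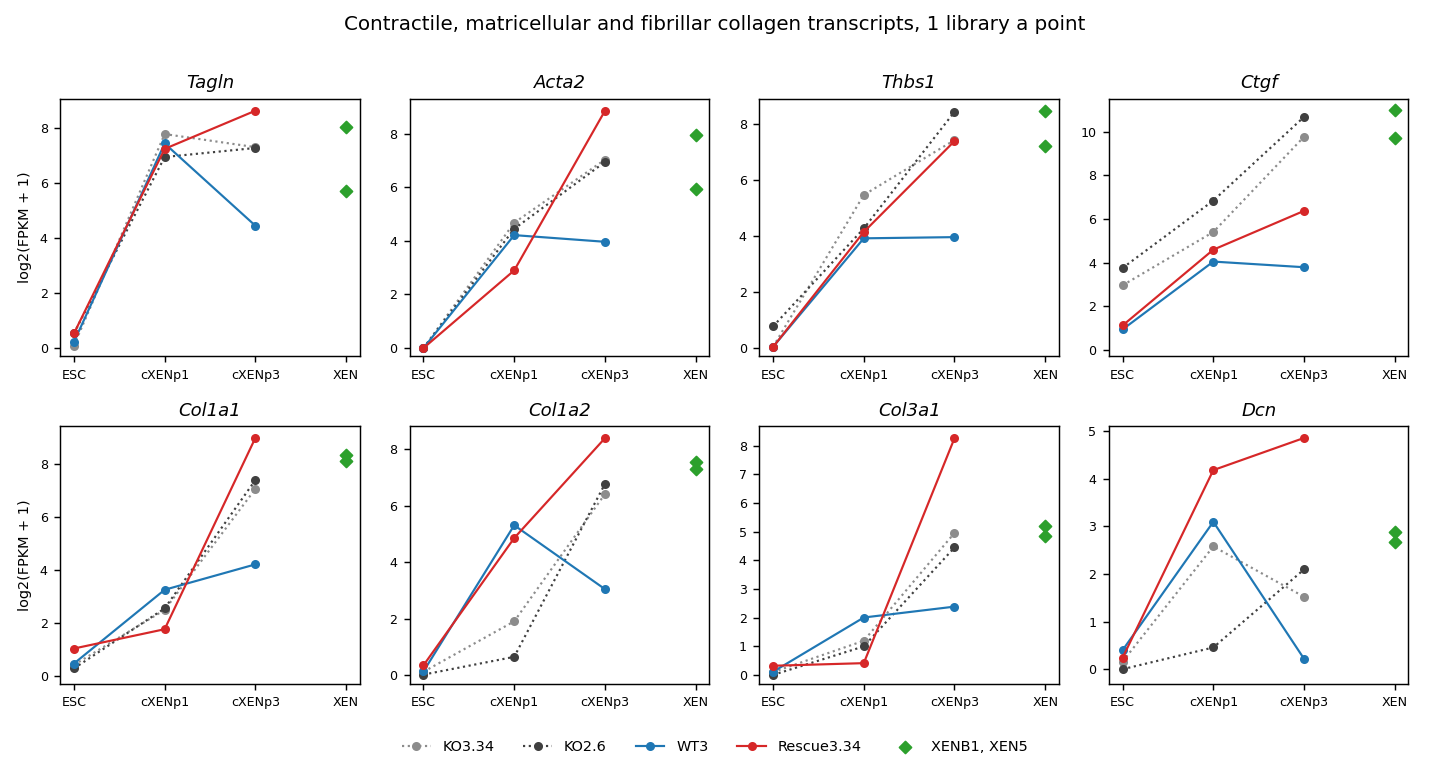
Level of 8 contractile, matricellular and fibrillar matrix genes as log2(FPKM + 1) at ESC, cXENp1 and cXENp3 in WT3 (blue), Rescue3.34 (red) and the knockout lines (grey, dotted), with XENB1 and XEN5 as green diamonds. Each point is 1 library. All 8 genes end higher in Rescue3.34 than in WT3. For Tagln, Acta2, Ctgf, Col1a2 and Dcn the WT3 level at cXENp3 lies below its cXENp1 level.

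Contractile genes as a list stood above ESC, mostly in Rescue3.34. Of 18 listed genes 17 were tested, 2 rose (Tagln and Acta2) and none fell, beside 0.523% and 0.622% of all genes. The median change of the list was 1.79, beside -0.01 over all genes, and it was 0.39 in WT3 and 3.17 in Rescue3.34. In all 17 the change was larger in Rescue3.34 than in WT3, as in 44.5% of all genes. Acta2, smooth muscle alpha actin, was listed at 0 in both ESC libraries. It had 17.6 and 6.46 FPKM at cXENp1 and 14.6 and 462 FPKM at cXENp3 (limma adjusted p = 0.0487). Actg2, its near-identical enteric counterpart, was also listed at 0 in ESCs and had 1.66 and 196 FPKM at cXENp3, and reads of the 2 genes may be split between them. Myl9, the regulatory light chain of smooth muscle myosin, was at 0.0535 and 0.181 FPKM in ESCs, 49.7 and 45.0 FPKM at cXENp1 and 5.27 and 157 FPKM at cXENp3 (adjusted p = 0.0698 by limma, not called). Its WT3 level was down to a small part of the cXENp1 level and its Rescue3.34 level was higher than at cXENp1. Tpm1, a tropomyosin that stiffens actin filaments, was at 40.3 and 38.4 FPKM in ESCs and 53.2 and 401 FPKM at cXENp3. In WT3 its level was close to that of its ESCs. Myh11, the smooth muscle myosin heavy chain, was at 0.123 and 19.1 FPKM at cXENp3. Only the Rescue3.34 library reached 1 FPKM of Myh11 among the 6 libraries of these lines.

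The 250 bases upstream of the RefSeq starts (GRCm38.p6) were read for the contractile list and for a list of YAP and TEAD targets. Smooth muscle contractile genes are classical targets of serum response factor, which binds the CArG box, and matricellular genes such as Cyr61 are classical targets of the YAP and TEAD factors, which bind GGAATG. RefSeq promoters were matched for 15 of 18 contractile genes and 11 of 15 YAP and TEAD targets, as 17 and 12 start sites. Both strands were searched. Only exact matches of CC, a run of A or T bases and GG were taken as a CArG box, so variants with a mismatch were not counted. The Acta2 window shown holds such near matches, ccctatatgg and ccttgtttgg. The CArG box was present in 3 of the 17 contractile promoters (17.6%), those of Cnn2, Myl9 and Vcl, beside 1.5% of 32851 promoters of the same length. GGAATG was present in 8 of the 17 contractile promoters (47.1%) and in 7 of the 12 YAP and TEAD target promoters (58.3%), beside 12.6% of all promoters. These matches describe the letters and were not tested for binding. The target list was drawn up by this pathway, so its share of GGAATG is not an independent result. Why the genes of these lists stood higher was not tested. Tagln and Thbs1 were not among the genes matched. Shown are 3 upstream windows that each hold a motif, 5′ to 3′ in the direction of the gene, with the motif in capitals. They are examples and do not stand for either list. Myl9 (chr2:156775214-156775463, plus strand) holds a CArG box that starts 161 bases before the start site. Acta2 (chr19:34255374-34255623, minus strand) holds GGAATG from 146 bases before it. Cyr61, RefSeq symbol Ccn1 (chr3:145649986-145650235, minus strand), holds the reverse complement, CATTCC, from 103 bases before it.
Myl9: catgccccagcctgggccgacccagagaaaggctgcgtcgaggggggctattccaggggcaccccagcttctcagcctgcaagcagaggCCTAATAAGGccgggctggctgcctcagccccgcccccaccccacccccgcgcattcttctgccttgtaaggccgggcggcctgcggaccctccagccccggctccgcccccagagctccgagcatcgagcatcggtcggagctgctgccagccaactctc
Acta2: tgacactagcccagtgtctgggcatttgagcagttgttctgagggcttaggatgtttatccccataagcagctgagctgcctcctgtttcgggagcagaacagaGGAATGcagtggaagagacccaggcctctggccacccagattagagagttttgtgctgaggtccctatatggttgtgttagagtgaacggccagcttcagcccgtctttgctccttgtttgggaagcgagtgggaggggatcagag
Cyr61: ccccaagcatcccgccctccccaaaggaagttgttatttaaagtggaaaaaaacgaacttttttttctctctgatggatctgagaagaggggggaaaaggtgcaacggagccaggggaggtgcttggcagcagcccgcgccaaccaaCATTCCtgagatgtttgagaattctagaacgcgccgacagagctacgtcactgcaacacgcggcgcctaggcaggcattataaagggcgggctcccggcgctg

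YAP and TEAD target genes were above ESC in both lines in 14 of 15 cases, beside 35.7% of all genes. The exception was Nuak2, at 11.2 and 15.4 FPKM in ESCs and 13.0 and 5.76 FPKM at cXENp3. Of the 15, 2 rose (Thbs1 and Ctgf), beside 0.523% of all genes, and the median change was 0.66 in WT3 and 2.46 in Rescue3.34. Ctgf, a secreted growth factor binding protein commonly read as a reporter of the pathway, was at 0.900 and 1.16 FPKM in ESCs, 15.5 and 23.1 FPKM at cXENp1 and 12.8 and 82.0 FPKM at cXENp3, a log2 change of 4.06 (SE 0.50, limma adjusted p = 0.0276). WT3 kept nearly its cXENp1 level of Ctgf. In the knockout cXENp3 libraries it was at 878 and 1653 FPKM, and the change from ESC was larger in the knockout lines by 2.82 (SE 0.71, limma adjusted p = 0.0270). Cyr61, whose upstream bases are shown above, was at 1.67 and 2.30 FPKM in ESCs, 92.4 and 92.9 FPKM at cXENp1 and 11.9 and 106 FPKM at cXENp3, and missed the threshold (limma adjusted p = 0.0571). Rescue3.34 was above its cXENp1 level and WT3 well below.

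Fibroblast transcripts were examined as possible carry-over from the feeders. Over 12 defining fibroblast genes the summed level was 21.5 and 20.4 FPKM in the WT3 and Rescue3.34 ESCs, 95.1 and 73.0 FPKM at cXENp1, and 41.6 and 1284 FPKM at cXENp3. The feeder passage lies between cXENp1 and cXENp3, so the cXENp1 sums precede it. WT3 at cXENp3 was below its own sum from before the feeders, and Rescue3.34 was far above. The knockout lines had 288 and 378 FPKM at cXENp3, and XENB1 and XEN5 had 679 and 579 FPKM. Of the 12 genes, 6 reached 1 FPKM in WT3 at cXENp3 and 11 in Rescue3.34. Lum and Fap, which encode lumican and fibroblast activation protein, were listed at 0 in WT3 at cXENp3 and at 8.32 and 0.333 FPKM in Rescue3.34. None of the 11 defining genes tested was called against ESC, beside 1.14% of all genes (median change 2.21, 0.60 in WT3 and 4.37 in Rescue3.34). How far feeder cells contribute to these values was not tested. In bulk RNA more cells of a type and more RNA per cell cannot be told apart.

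The defining genes did not stand in 1 ratio between the lines. Some ratios rest on WT3 levels near 0, such as 0.163 FPKM for Dcn. What the spread of the ratios means for feeder carry-over was not tested. At cXENp3 the Rescue3.34 level was 171 times the WT3 level for Dcn, 72.4 times for Col3a1, 46.1 times for Col1a2, 29.1 times for Col1a1, 11.9 times for Thy1 and 1.69 times for Prrx2. Against the KO3.34 library at cXENp3 the ratio ran from 0.64 for Twist2 to 14.9 for Dcn. Dcn, the small proteoglycan decorin, was at 0.319 and 0.182 FPKM in ESCs, 7.53 and 17.1 FPKM at cXENp1 and 0.163 and 27.9 FPKM at cXENp3. It was thus present in both lines before the feeder passage and nearly gone from WT3 after it. Col3a1, type III collagen, was at 0.0793 and 0.247 FPKM in ESCs, 3.01 and 0.329 FPKM at cXENp1 and 4.21 and 305 FPKM at cXENp3, and at 27.8 and 35.3 FPKM in XENB1 and XEN5. Its Rescue3.34 level exceeded every other library. Thy1 was at 15.8 and 13.2 FPKM in ESCs, 1.51 and 0.942 FPKM at cXENp1 and 3.14 and 37.4 FPKM at cXENp3. WT3 was below its ESC level of Thy1 and Rescue3.34 above it, so this marker did not follow 1 direction. Prrx1, a limb and mesenchyme homeobox factor, was at 0.530 and 20.2 FPKM at cXENp3 against 0.697 and 0.294 FPKM at cXENp1.

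Over the wider list of 30 feeder fibroblast genes, 29 were tested and 3 rose (S100a4, Fbln2 and Bgn), with none lower. Of all genes 0.523% rose and 0.622% fell. The median change was 0.71 in WT3 and 3.78 in Rescue3.34, and all 29 changes were larger in Rescue3.34, beside 44.5% of all genes. S100a4, a calcium-binding protein of motile mesenchymal cells and macrophages, was at 0 and 0.458 FPKM in ESCs, 0.149 and 0.351 FPKM at cXENp1 and 7.89 and 19.0 FPKM at cXENp3, a log2 change of 3.47 (SE 0.27, limma adjusted p = 0.0124). Here WT3 too was well above its level before the feeder passage, and the rise against cXENp1 passed the test (3.42, limma adjusted p = 0.00111). S100a4 reached 90.3 and 132 FPKM in the knockout cXENp3 libraries and 226 and 82.7 FPKM in XENB1 and XEN5. Bgn, the proteoglycan biglycan, was at 0.210 and 0.382 FPKM in ESCs, 3.24 and 3.06 FPKM at cXENp1 and 7.71 and 66.0 FPKM at cXENp3, a log2 change of 4.22 (SE 0.64, limma adjusted p = 0.0388). Fbln2, the matrix protein fibulin 2, was at 0.171 and 0.312 FPKM in ESCs, 0.645 and 0.745 FPKM at cXENp1 and 5.34 and 38.6 FPKM at cXENp3, a log2 change of 3.68 (SE 0.56, limma adjusted p = 0.0388). Both rose from cXENp1 to cXENp3 as well (limma adjusted p = 0.0438 for Bgn and 0.0132 for Fbln2). Fn1, fibronectin, is abundant in ESCs too and was at 283 and 357 FPKM there and 236 and 328 FPKM at cXENp3. All 30 genes summed to 354 and 423 FPKM in the WT3 and Rescue3.34 ESCs, grown without feeders, and to 405 and 2451 FPKM at cXENp3. In XENB1 and XEN5 the sums were 2315 and 1538 FPKM. The list is thus not particular to feeder cells.

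Markers of other cell types were read the same way. The 11 macrophage genes in the table summed to 35.4 and 31.2 FPKM in the WT3 and Rescue3.34 ESCs, 3.71 and 4.08 FPKM at cXENp1 and 39.4 and 35.7 FPKM at cXENp3. Of 8 tested, 1 rose, Lyz2, the macrophage and monocyte lysozyme, from 0.0599 and 0 FPKM in ESCs and 0 at cXENp1 in both lines to 5.84 and 22.1 FPKM at cXENp3 (limma adjusted p = 0.0250). Tyrobp, an adaptor of myeloid receptors, was listed at 0 in both ESC and both cXENp1 libraries and was at 0.508 and 1.02 FPKM at cXENp3. The defining genes Ptprc and Csf1r stayed at or below 0.134 FPKM in the 6 libraries of these lines. Lyz2 was at 64.6 and 57.5 FPKM in the knockout cXENp3 libraries and at 802 and 311 FPKM in XENB1 and XEN5. The 8 endothelial genes summed to 42.2 and 39.8 FPKM in ESCs and to 32.3 and 18.7 FPKM at cXENp3, almost all of it Pecam1, which ESCs express. None of the 6 endothelial genes tested was called, beside 1.14% of all genes.

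Some of the genes that separate Rescue3.34 most from WT3 lie outside the collagen family. The 5 genes whose change in Rescue3.34 most exceeded that in WT3 were Snord22, Igf2, Actg2, Ptn and Col3a1, given as a description without test. The small RNA Snord22 was listed at 539 FPKM in WT3 ESCs and at 0 in the other ESC and both cXENp3 libraries of these lines. Its rank thus rests on that WT3 ESC value and not on a level in Rescue3.34. Ptn, the growth factor pleiotrophin, was at 0 and 0.0712 FPKM in ESCs and 0.799 and 101 FPKM at cXENp3. Among genes above 0 in all 4 libraries, a condition added later, the 5 were Igf2, Col3a1, H19, Col1a2 and Cdh11. Igf2 encodes a fetal growth factor and H19 is its neighbouring imprinted noncoding RNA. Igf2 was at 0.343 and 0.294 FPKM in ESCs, 32.8 and 19.3 FPKM at cXENp1 and 3.56 and 358 FPKM at cXENp3. H19 was at 1.86 and 1.90 FPKM in ESCs, 194 and 100.4 FPKM at cXENp1 and 7.83 and 344 FPKM at cXENp3. The Rescue3.34 levels of both at cXENp3 stood above those of all 13 other libraries. In the knockout cXENp3 and XEN libraries, where collagens were also high, Igf2 ranged from 5.64 to 15.4 FPKM and H19 from 8.27 to 21.9 FPKM. Cdh11, a cadherin of mesenchyme, was at 1.52 and 71.2 FPKM at cXENp3. In the other direction the 5 genes were Snhg9, Snora43, Mt4, Hist1h2bb and Cldn4. The first 3 of these rest on at least 1 library listed at 0, and among genes above 0 in all 4 libraries the 5 were Hist1h2bb, Cldn4, Cdk5r2, Klk1b22 and Ifitm1. Ifitm1, a membrane protein of early germ cells and ESCs, was at 632 and 829 FPKM in ESCs and 209 and 55.2 FPKM at cXENp3, below its ESC level in both lines and lower in Rescue3.34.

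Lefty2, Zic2, Lef1 and Dnmt3a also rose, with changes closer in size between the lines. Nodal ligands signal through activin receptors, activin A uses the same receptors, and the cells answer by making the Nodal inhibitors Lefty1 and Lefty2. As the epiblast leaves the naive state it takes up Zic2, Lef1 and the DNA methyltransferases. Lefty2 (mm9, chromosome 1, 182823250 to 182829233) was at 28.3 and 21.8 FPKM in the WT3 and Rescue3.34 ESCs, 25.5 and 53.2 FPKM at cXENp1 and 283 and 269.9 FPKM at cXENp3, a log2 change of 3.42 (SE 0.52, limma adjusted p = 0.0388). The cXENp3 level was high in both lines and above cXENp1 too (2.87, limma adjusted p = 0.0157). Lefty1 was at 50.7 and 45.2 FPKM in ESCs, 52.8 and 309 FPKM at cXENp1 and 580.2 and 386 FPKM at cXENp3, and missed the threshold (limma adjusted p = 0.0849). The 2 genes are similar in sequence, so reads may be split between them. In the knockout cXENp3 libraries Lefty2 was at 3.29 and 0.219 FPKM. The change of Lefty2 from ESC was lower in the knockout lines by a log2 difference of -6.42 (SE 0.74, limma adjusted p = 0.00379). Nodal itself was at 21.1 and 30.1 FPKM in ESCs and 51.2 and 33.8 FPKM at cXENp3 and was not called. Of 14 mesendoderm genes only 8 were tested and 1 rose (Lefty2), beside 0.523% of all genes. T, Mixl1, Cer1 and Mesp1 stayed below 0.5 FPKM in the cXENp3 libraries of both lines.

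Zic2, a zinc finger factor of the primed epiblast, was at 3.44 and 2.63 FPKM in ESCs, 4.43 and 6.54 FPKM at cXENp1 and 37.6 and 27.8 FPKM at cXENp3, a log2 change of 3.05 (SE 0.30, limma adjusted p = 0.0229). It was high at cXENp3 in both Zfp281-present lines and stayed at 3.42 and 4.22 FPKM in the knockout lines. Lef1, a nuclear effector of Wnt signalling, was at 0.421 and 0.533 FPKM in ESCs, 1.29 and 1.40 FPKM at cXENp1 and 30.0 and 10.8 FPKM at cXENp3, a log2 change of 3.69 (SE 0.39, limma adjusted p = 0.0229). WT3 had the highest level of Lef1 among the 14 libraries. Dnmt3a, a de novo DNA methyltransferase, was at 8.91 and 7.25 FPKM in ESCs, 30.1 and 22.4 FPKM at cXENp1 and 30.3 and 26.2 FPKM at cXENp3, a log2 change of 1.69 (SE 0.26, limma adjusted p = 0.0388). Its level was alike at both later stages. These 3 of 19 formative and primed epiblast genes rose and none fell, beside 0.523% and 0.622% of all genes, with a list median of 0.73. The median was 1.09 in WT3 and 0.60 in Rescue3.34. In 3 of 19 genes the change was larger in Rescue3.34, beside 44.5% of all genes. Of the others, Fgf15 was at 4.08 and 2.87 FPKM in ESCs and 23.2 and 8.46 FPKM at cXENp3, Sox3 at 1.58 and 0.854 FPKM and 8.93 and 4.72 FPKM, and Etv5 at 80.4 and 62.8 FPKM and 174 and 100.2 FPKM, none of them called. In the other direction Cldn6, a claudin of early epithelia, was at 38.2 and 49.3 FPKM in ESCs and 19.6 and 5.25 FPKM at cXENp3 and Lin28a, an RNA-binding protein of early cells, at 120 and 73.8 FPKM and 106 and 62.4 FPKM, neither of them called. Fgf5, a defining primed epiblast growth factor, was listed at 0 in both ESC libraries and at 0.483 and 0.398 FPKM at cXENp3. Pou3f1 was at 4.05 and 2.56 FPKM in ESCs and 7.47 and 2.17 FPKM at cXENp3, so these 2 markers of the primed state stayed low. Epha2, an ephrin receptor, was at 19.8 and 23.2 FPKM in ESCs, 21.2 and 16.3 FPKM at cXENp1 and 89.2 and 78.9 FPKM at cXENp3, a log2 change of 1.92 (SE 0.21, limma adjusted p = 0.0230), and was named after its values were seen.

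**Figure D3:**
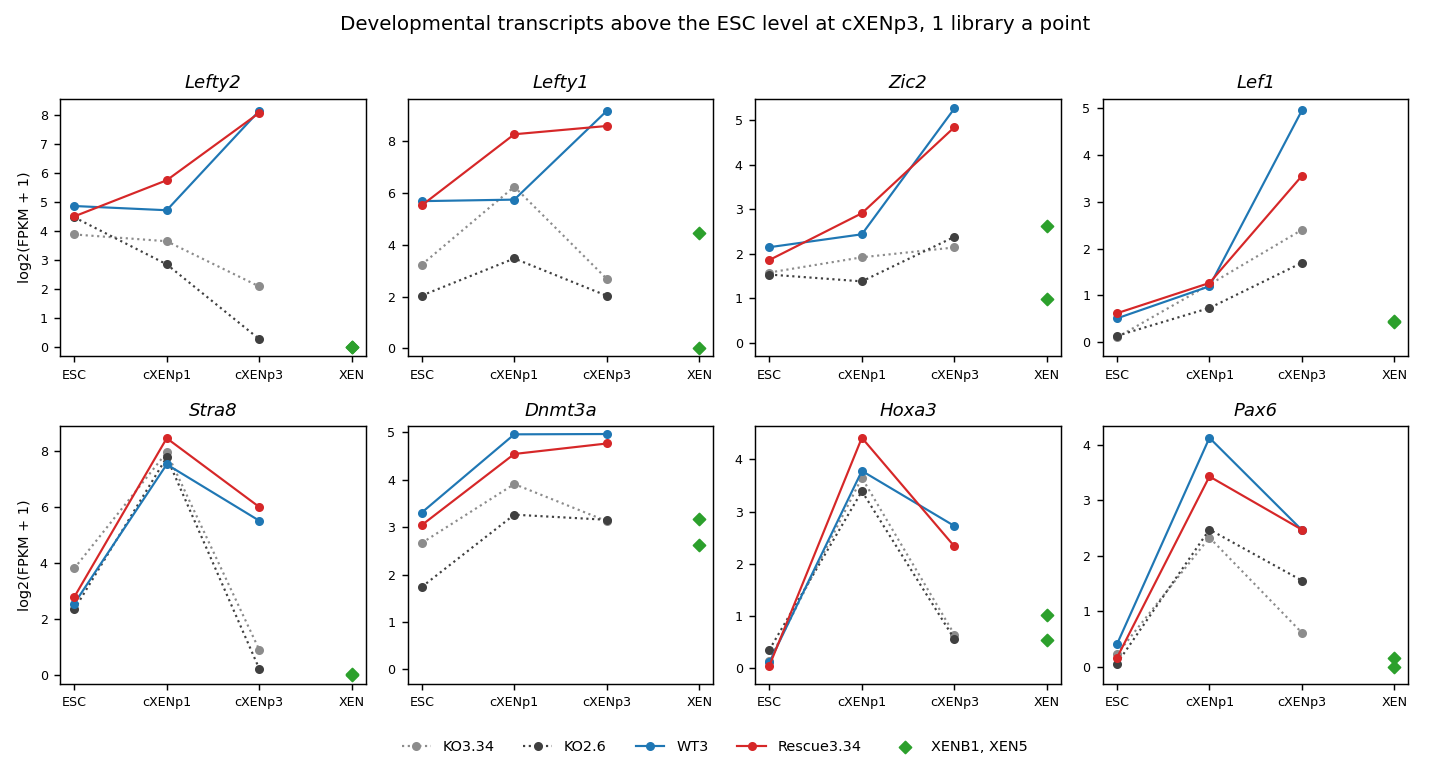
Level of 8 developmental genes (Lefty2, Lefty1, Zic2, Lef1, Stra8, Dnmt3a, Hoxa3 and Pax6) as log2(FPKM + 1) at ESC, cXENp1 and cXENp3 in WT3 (blue), Rescue3.34 (red) and the knockout lines (grey, dotted), with XENB1 and XEN5 as green diamonds, each point 1 library. WT3 and Rescue3.34 both end above their ESCs, and in all 8 genes they end above the knockout lines.

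Retinoic acid response genes had fallen steeply since cXENp1 without reaching the ESC level. Retinoic acid switches on Hox genes from the 3′ end of each cluster, its own degrading enzymes and Stra8. The 16 listed genes summed to 19.7 and 18.4 FPKM in the WT3 and Rescue3.34 ESCs, 1659.2 and 1659.1 FPKM at cXENp1, and 78.1 and 125 FPKM at cXENp3. Against cXENp1 15 of the 16 fell (limma, beside 5.67% of all genes). Against ESC 3 rose, beside 0.523% of all genes, among them Stra8 and Hoxa3. The median change from ESC was 0.58 in WT3 and 1.56 in Rescue3.34, and 14 of 16 genes were above ESC in both lines, beside 35.7% of all genes. Stra8, a retinoic acid target that licenses meiosis, was at 4.85 and 5.88 FPKM in ESCs, 183 and 350.1 FPKM at cXENp1 and 44.6 and 63.1 FPKM at cXENp3, a log2 change of 3.09 (SE 0.31, limma adjusted p = 0.0229). It was at 0.871 and 0.170 FPKM in the knockout cXENp3 libraries, a log2 difference in change of -5.60 (SE 0.44, limma adjusted p = 0.00136). Stra8 thus stayed about an order above ESC in the Zfp281-present lines and went below its ESC level in the knockouts. Hoxa3 was at 0.0746 and 0.0291 FPKM in ESCs, 12.7 and 20.3 FPKM at cXENp1 and 5.60 and 4.03 FPKM at cXENp3 (limma adjusted p = 0.0264). In the same cluster Hoxa10 was listed at 0 in both ESC libraries, with 6.97 and 1.86 FPKM at cXENp1 and 19.8 and 6.0 FPKM at cXENp3 (limma adjusted p = 0.0415). For Hoxa10 the WT3 level was higher at cXENp3 than at cXENp1, unlike that of Hoxa3. Genes of the cluster overlap and the strand setting of the counting is not given, so reads of neighbours and antisense transcripts may be mixed.

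The degrading enzyme Cyp26a1, by contrast, went from 649 and 445 FPKM at cXENp1 to 0.903 and 0.776 FPKM at cXENp3, beside 0.0324 and 0.227 FPKM in ESCs. In the knockout cXENp3 libraries it was still at 49.8 and 35.8 FPKM. Among the Hoxb genes, Hoxb2 was listed at 0 in both ESC libraries and at 0.788 and 4.12 FPKM at cXENp3. Meis2, a cofactor of Hox proteins, was at 0.0464 and 0 FPKM in ESCs and 2.41 and 10.7 FPKM at cXENp3 (limma adjusted p = 0.0870). Of 6 neural progenitor genes tested 1 rose, Pax6, from 0.324 and 0.119 FPKM in ESCs to 4.51 and 4.54 FPKM at cXENp3 (limma adjusted p = 0.0361), after 16.4 and 9.77 FPKM at cXENp1. Both lines held nearly the same level of Pax6 at cXENp3.

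Other genes of the 15 largest rises were mixed in function. Ccnd2, the cell cycle regulator cyclin D2, was at 0.485 and 0.156 FPKM in ESCs, 49.1 and 23.8 FPKM at cXENp1 and 19.0 and 61.5 FPKM at cXENp3, a log2 change of 4.75 (SE 0.63, limma adjusted p = 0.0290). Anxa1, a phospholipid-binding annexin, was at 0.0992 and 0.0343 FPKM in ESCs, 22.2 and 12.4 FPKM at cXENp1 and 9.82 and 179.6 FPKM at cXENp3, a log2 change of 5.37 (SE 0.98, limma adjusted p = 0.0497). Anxa1 followed the Rescue3.34 pattern of the contractile genes, and its WT3 level was lower than at cXENp1. Peg10, an imprinted gene derived from a retrotransposon, was at 3.56 and 2.44 FPKM in ESCs, 512 and 277 FPKM at cXENp1 and 32.4 and 21.0 FPKM at cXENp3, and was not called (limma adjusted p = 0.169). With the description prefix as a term its change turned to -1.19, and the KO2.6 ESC library, the only ESC library with the XH prefix, had 129 FPKM of Peg10 against 2.32 FPKM in KO3.34 ESCs. Col1a2, the second chain of type I collagen, was at 0.0941 and 0.270 FPKM in ESCs, 38.5 and 27.8 FPKM at cXENp1 and 7.24 and 334 FPKM at cXENp3 (limma adjusted p = 0.0754). Besides Acta2 and Hoxa10, the transcripts listed at 0 in both ESC libraries that ranked highest by the lower of the 2 cXENp3 levels were the small RNAs Snora74a, Rprl3 and Snord17. Snora74a was at 8.43 and 19.2 FPKM, Rprl3 at 7.70 and 7.09 FPKM and Snord17 at 10.0 and 6.16 FPKM, none of them called. Each of the 3 was also listed at 0 in XEN5 and in at least 1 knockout cXENp3 library.

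Socs3, a target of the LIF pathway, fell. LIF acts through STAT3, which induces the feedback inhibitor Socs3. Socs3 (mm9, chromosome 11, 117827401 to 117830680) was at 143 and 132 FPKM in the WT3 and Rescue3.34 ESCs, 3.97 and 4.42 FPKM at cXENp1 and 32.0 and 18.9 FPKM at cXENp3, a log2 change of -2.44 (SE 0.28, limma adjusted p = 0.0240). It had risen from cXENp1 (2.30, limma adjusted p = 0.00365) to a level between the other stages. The ESC medium contains LIF and the XEN medium lists none, so medium and stage cannot be told apart. Of 12 LIF and STAT3 targets Socs3 alone was called against ESC, beside 1.14% of all genes. From cXENp1 9 of the 12 rose, beside 4.85% of all genes. Against ESC 7 of the 12 were lower in both lines and 4 higher, beside 36.4% and 35.7% of all genes. The 4 were higher by up to 2.22 in WT3 and 2.39 in Rescue3.34. Of these, Gbx2, a homeobox factor downstream of STAT3, was at 13.8 and 6.69 FPKM in ESCs and 32.6 and 22.1 FPKM at cXENp3. Klf4 was at 139 and 117 FPKM in ESCs and 97.0 and 56.2 FPKM at cXENp3, and Tfcp2l1, a naive state factor, was at 109 and 96.8 FPKM and 49.7 and 26.7 FPKM (limma adjusted p = 0.139). Both were lower in Rescue3.34 than in WT3 at cXENp3. Pim1, a STAT3-induced kinase, was at 98.5 and 84.4 FPKM in ESCs and 95.4 and 62.3 FPKM at cXENp3.

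The amino acid response, driven by the factor ATF4 when amino acids run short, was below its ESC level. Of 15 listed genes 14 were tested, 2 fell (Trib3 and Atf5) and none rose, beside 0.622% and 0.523% of all genes. The median change was -0.89, -1.11 in WT3 and -0.83 in Rescue3.34, and 13 of the 14 genes were lower in both lines, beside 36.4% of all genes. Trib3, a pseudokinase that restrains ATF4, was at 44.1 and 25.5 FPKM in ESCs, 1.62 and 1.96 FPKM at cXENp1 and 7.46 and 5.85 FPKM at cXENp3, a log2 change of -2.18 (SE 0.28, limma adjusted p = 0.0290). Atf5 was at 35.2 and 27.1 FPKM in ESCs, 13.2 and 9.73 FPKM at cXENp1 and 8.49 and 12.6 FPKM at cXENp3, a log2 change of -1.49 (SE 0.26, limma adjusted p = 0.0461). Asns, asparagine synthetase, was at 371 and 267 FPKM in ESCs, 43.6 and 37.2 FPKM at cXENp1 and 115 and 84.0 FPKM at cXENp3 and missed the threshold (limma adjusted p = 0.0571). Chac1, which degrades glutathione, was at 44.5 and 17.6 FPKM in ESCs and 5.81 and 7.34 FPKM at cXENp3 (limma adjusted p = 0.0612). In each of these 4 genes both cXENp3 libraries lay below both ESC libraries. Outside the list and named after their values were seen, Pck2 and the cysteine tRNA synthetase Cars, known ATF4 targets, fell too (limma adjusted p = 0.0415 and 0.0392). The ESC level of the 2 prefixes can be compared in the knockouts: Trib3 was at 11.8 FPKM in KO3.34 ESCs and 35.6 FPKM in KO2.6 ESCs, and Asns at 439 and 427 FPKM.

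Crb3 and Tjp3, which belong to epithelial polarity and junctions, fell. Crb3, an apical polarity protein, was at 27.8 and 27.0 FPKM in ESCs, 6.79 and 11.3 FPKM at cXENp1 and 4.81 and 1.05 FPKM at cXENp3, a log2 change of -3.04 (SE 0.44, limma adjusted p = 0.0357). Tjp3, a tight junction scaffold, was at 18.3 and 19.8 FPKM in ESCs, 1.31 and 1.22 FPKM at cXENp1 and 5.34 and 1.14 FPKM at cXENp3, a log2 change of -2.44 (SE 0.40, limma adjusted p = 0.0451). Both genes were named after their values were seen, and both were lowest in Rescue3.34 at cXENp3. Of 14 listed epithelial and mesenchymal genes none was called, beside 1.14% of all genes. Cldn4 and Cldn7 encode claudins of tight junctions. Cldn7 was at 50.2 and 52.0 FPKM in ESCs, 3.71 and 23.4 FPKM at cXENp1 and 9.37 and 1.77 FPKM at cXENp3 (limma adjusted p = 0.107). Cldn4 was at 129 and 148 FPKM in ESCs, 40.7 and 87.7 FPKM at cXENp1 and 42.1 and 7.28 FPKM at cXENp3 (limma adjusted p = 0.0906). Cdh1, E-cadherin, was at 164 and 196 FPKM in ESCs and 122 and 73.2 FPKM at cXENp3, and Epcam at 77.2 and 81.8 FPKM and 89.4 and 29.2 FPKM. WT3 held Epcam at its ESC level and Rescue3.34 did not. On the mesenchymal side Vim, vimentin, was at 57.7 and 29.5 FPKM in ESCs and 136 and 427 FPKM at cXENp3 and Cdh2, N-cadherin, at 0.177 and 0.221 FPKM and 1.69 and 7.39 FPKM, neither of them called. Snai1, a repressor of E-cadherin, was at 1.32 and 5.65 FPKM at cXENp3 against 161 and 80.1 FPKM in the knockouts.

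**Figure D4:**
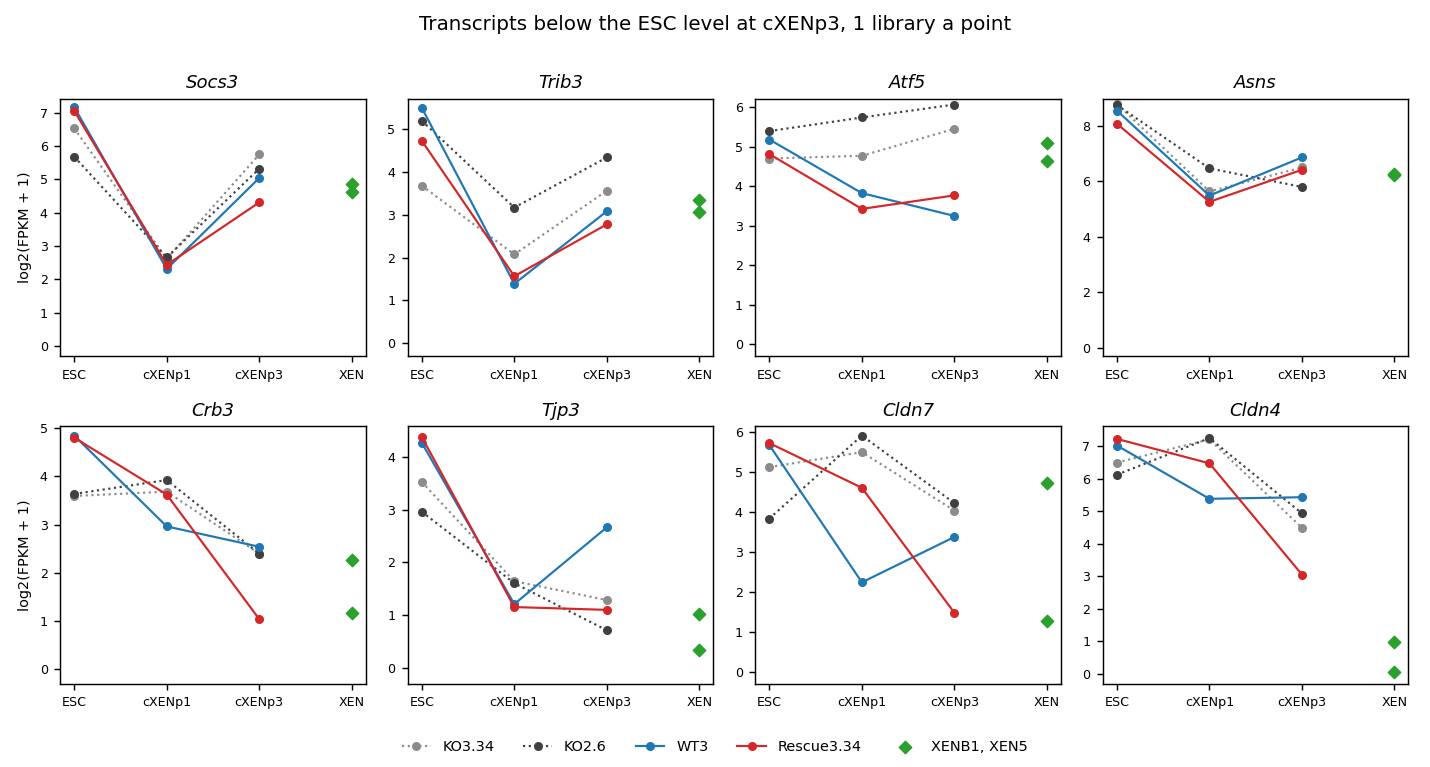
Level of 8 genes that were lower at cXENp3 than in ESCs, as log2(FPKM + 1), in WT3 (blue), Rescue3.34 (red) and the knockout lines (grey, dotted), with XENB1 and XEN5 as green diamonds, each point 1 library. Socs3, Trib3 and Asns dip at cXENp1 and regain part of their ESC level, and Crb3, Cldn7 and Cldn4 end lowest in Rescue3.34 among the 4 course lines.

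The 15 largest falls by the smaller change of the 2 lines included secreted and neural genes with no shared pathway that was listed. Calb2, the calcium buffer calretinin, was at 28.5 and 36.7 FPKM in ESCs, 0.794 and 0.887 FPKM at cXENp1 and 0.741 and 1.59 FPKM at cXENp3, a log2 change of -3.97 (SE 0.72, limma adjusted p = 0.0481). Klk1, a tissue kallikrein, was at 25.6 and 30.0 FPKM in ESCs, 0 and 0.0656 FPKM at cXENp1 and 1.95 and 0.882 FPKM at cXENp3, a log2 change of -3.61 (SE 0.41, limma adjusted p = 0.0240). Ly6g6e was at 61.8 and 67.9 FPKM in ESCs, 0.118 and 0.126 FPKM at cXENp1 and 7.68 and 2.44 FPKM at cXENp3 (limma adjusted p = 0.0401). All 3 were nearly absent at cXENp1 and stayed far below ESC in both lines. Wfdc2, a secreted protease inhibitor, was at 99.2 and 133 FPKM in ESCs and 17.4 and 18.5 FPKM at cXENp3, and Insl3, a relaxin-like hormone, at 38.8 and 72.2 FPKM and 6.37 and 7.93 FPKM (limma adjusted p = 0.0357 and 0.0357). Gstt1, a glutathione transferase, was at 30.1 and 23.7 FPKM in ESCs, 13.0 and 11.4 FPKM at cXENp1 and 3.57 and 3.76 FPKM at cXENp3 (limma adjusted p = 0.0250). Among the 15, only Gstt1 fell again from cXENp1 to cXENp3 (limma adjusted p = 0.0220). Neat1, the noncoding RNA that builds paraspeckles, was at 66.3 and 82.3 FPKM in ESCs, 5.81 and 5.14 FPKM at cXENp1 and 6.07 and 4.39 FPKM at cXENp3 (limma adjusted p = 0.0572). The change of Neat1 was higher in the knockout lines by 4.22 (SE 0.98, limma adjusted p = 0.0217). Meg3, an imprinted noncoding RNA, was at 42.3 and 75.4 FPKM in ESCs and 7.0 and 14.3 FPKM at cXENp3. Meg3, Gpx2, Gm5480, Adssl1, Macrod1, Grin1, 2810008D09Rik and Krt7 were not called, with limma adjusted p from 0.0517 for Gpx2 to 0.196 for Krt7. Cox6a2, a muscle subunit of cytochrome oxidase, was at 2.29 and 1.88 FPKM in ESCs and listed at 0 in both cXENp3 libraries (limma adjusted p = 0.0357). Myl2, Lgals2, Fxyd3 and Tmem139 were also listed at 0 there, from ESC levels of at most 1.99 FPKM, and none was called. Fxyd3 was at 233 and 365 FPKM in the knockout cXENp3 libraries.

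Description prefix and transcript length were set beside the calls. In KO2.6 ESCs, the ESC library with the XH prefix, the level was below that of KO3.34 ESCs in 62 of the 82 falls (75.6%), in 25 of the 69 rises (36.2%) and in 57.2% of all genes. The median difference between these 2 knockout ESC libraries was -0.34 over the falls, 0.11 over the rises and -0.09 over all genes. They differ in line as well as in prefix, and the prefix term of the fit rests on this pair. The XEN list summed to 161 FPKM in KO3.34 ESCs and to 617 FPKM in KO2.6 ESCs. The longest annotated transcript had a median length of 1901 bases in the falls, 2534 in the rises and 3060 in all genes tested (GENCODE vM21, matched by symbol for 79, 66 and 12442 genes). Transcripts under 1000 bases made up 21.5% of the falls, 4.5% of the rises and 5.7% of all genes. Genes of that length had a median change of -0.15 in WT3 and -0.33 in Rescue3.34, against 0.04 and 0.05 for those of 5000 bases and more. The short or repeated transcripts Rpl36, Atp5e, Mrpl52 and Rn45s, named after their values were seen, are among the falls. Rpl36, a ribosomal protein gene with many near-identical copies, was at 9701 and 10296 FPKM in ESCs and 2719.7 and 2210.2 FPKM at cXENp3, and its call is uncertain. With the prefix as a term none of the falls was called, as given above, and the part of transcript length was not tested.

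In other lists no gene was called, beside 1.14% of all genes, a share at which lists this short would mostly hold no call. None of 16 cholesterol synthesis genes tested was called (median -0.04), with changes between -0.73 and 0.53 over both lines, and none of 11 p53 targets (median -0.21) or 8 trophoblast genes (median 0.07). The p53 targets ranged from -0.93 to 1.80 over both lines and the trophoblast genes from -2.48 to 0.43, so single members stood away from ESC. These medians are beside -0.01 over all genes. The medians of the lists in each line, with their ranges, show which groups were displaced in 1 line and which in both.

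**Figure D5:**
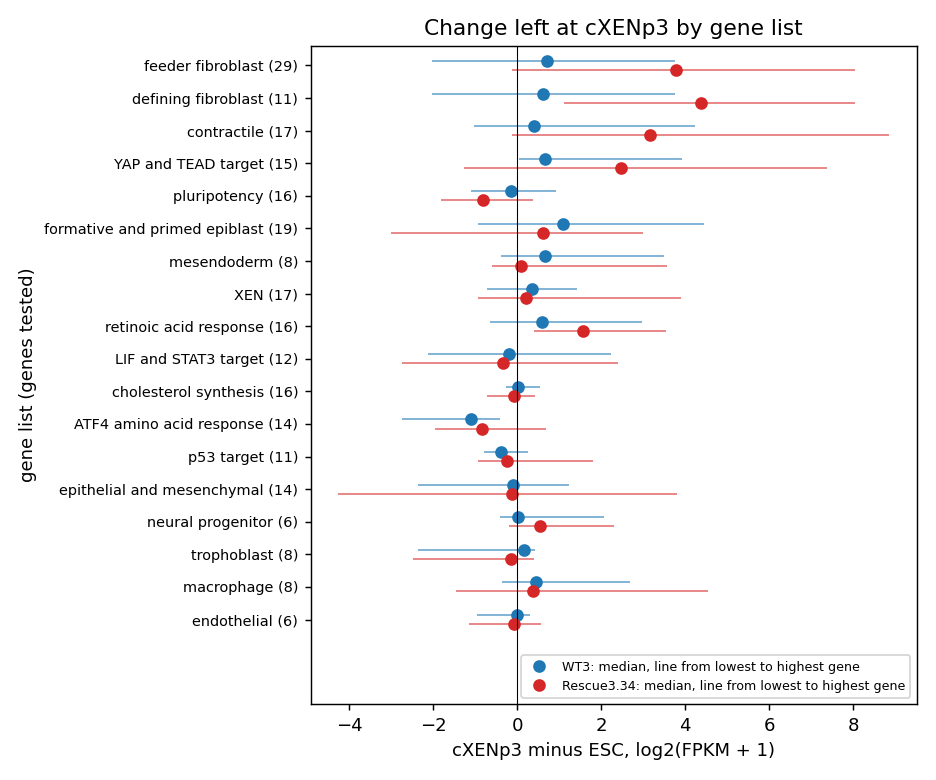
Median change from ESC to cXENp3 (points) and the range from the lowest to the highest gene (lines) for 18 gene lists in WT3 (blue) and Rescue3.34 (red), as differences of log2(FPKM + 1), with the number of genes tested in brackets. The fibroblast, contractile and YAP and TEAD lists lie far apart in the lines, with medians of 3.78 and 0.71 for feeder fibroblast genes, and the amino acid response list lies below 0 in both.

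Set against the knockout lines, the Zfp281-present lines had higher summed pluripotency markers and lower summed XEN markers at cXENp3. The XEN list summed to 250 and 808 FPKM in WT3 and Rescue3.34 and to 4119 FPKM in KO3.34 with 2948 FPKM in KO2.6. Of its 17 genes 9 reached 1 FPKM in each of the Zfp281-present libraries. The pluripotency list summed to 1309 and 443 FPKM in the knockouts. The change from ESC differed between knockout and present lines in 2999 of 13191 genes (22.7%; limma), higher in the knockouts in 1798 (13.6%) and lower in 1201 (9.10%). With quantile normalization, which shifts the median difference from 0.06 to -0.07, the split was 1529 higher and 1684 lower. The count was 24 without WT3, 317 without Rescue3.34 and 962 without KO2.6. The pluripotency list was lower in the knockouts in 10 of 16 genes, and the XEN list was higher in 7 and lower in 4 of 17, of which Sparc, Col4a1, Col4a2 and Lamc1 are the genes listed at 0. By median change over the wider feeder fibroblast list and the contractile list, the knockout lines sat nearer to Rescue3.34 than to WT3. Their medians over the 29 feeder fibroblast genes were 2.61 in KO3.34 and 3.55 in KO2.6, against 3.78 in Rescue3.34 and 0.71 in WT3. For the contractile list they were 2.86 and 3.03, against 3.17 and 0.39. Over the defining fibroblast genes they were 2.33 and 3.20, against 4.37 and 0.60. There KO3.34 sat nearer to WT3. In the feeder fibroblast and contractile lists 2 and 1 genes differed between knockout and present lines by the test. All were higher in the knockouts (S100a4 and Fbln2, and Csrp1). Whether WT3 differs from Rescue3.34 could not be tested, since each gives 1 library at the stage.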

How the data were processed

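RNA of the 14 libraries was selected for polyA and sequenced in pairs. FPKM values per gene were made and deposited by the authors with STAR 2.5.3, Cufflinks 2.1.1 and mm9, per the submitters' processing notes, and the gene annotation is not given in the sources used here. The values are not counts, so depth is unknown, and the number of libraries limits the precision. Fold changes on the log2(FPKM + 1) scale understate the change of low genes.

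Genes with at least 1 FPKM in at least 2 of the 12 libraries of the ESC, cXENp1 and cXENp3 stages were kept. The line was a block and each stage had its own effect in Zfp281-present and in knockout lines, which left 4 residual degrees of freedom. limma 3.58.1 in R 4.3.3 was used with a trended eBayes, two-sided, and Benjamini-Hochberg adjustment over 13191 genes in each of 3 comparisons. The pairing comes from the labels, since ESC, cXENp1 and cXENp3 libraries of 1 line share that line.

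Named were members of the lists, the 15 genes each way, above 0 in all 4 libraries, with the largest smaller change of the 2 lines, the 5 each way listed at 0 in both libraries of a stage, and the 5 each way that differ most between the lines, also among genes above 0 in all 4 libraries, which was added after seeing the data. A few of these genes are not reported here. The members and lists were chosen with earlier results of these data known. Alternatives were another pseudocount, 2 other filters, quantile normalization, eBayes without trend, no block, a minimum log2 size, the description prefix as a term, each line left out, and only the 4 libraries compared.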

Additional observations from a re-analysis of the deposited data

Results flagged for a closer look

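The change from ESC to cXENp3 differed between knockout and Zfp281-present lines in 2999 genes by limma's test of the difference. Among the largest rises and falls named above it was lower in the knockouts, on the log2(FPKM + 1) scale, for Lefty2 (-6.42), Stra8 (-5.60), Lefty1 (-3.56) and Zic2 (-2.35). It was higher for Neat1 (4.22) and Ctgf (2.82). The XEN lines, which entered no comparison, had summed levels of the 12 defining fibroblast genes of 679 FPKM in XENB1 and 579 FPKM in XEN5, above the 6.63 to 21.5 FPKM of the 4 ESC libraries.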

How the results depend on the processing

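Of cXENp3 against ESC, 151 genes were called, and the count was 0 over every gene above 0, with the prefix of the description modelled and on only the 4 libraries, 43 at a mean of at least 5 FPKM and 84 after quantile normalization. Leaving out each line gave 0 (without Rescue3.34) to 154 (without WT3). cXENp3 against cXENp1 gave 1388, with 856 at a mean of at least 5 FPKM, 832 on only the 4 libraries, and 72 (without WT3) to 1784 (without KO3.34) with 1 line left out. The knockout difference gave 2999, with 1271 under the prefix term, and 24 (without WT3) to 3791 (without KO3.34) with 1 line left out, 317 without Rescue3.34 and 962 without KO2.6. The other settings stayed within 1.5 times the count, among them the fit with no replicate block, with 171, 1441 and 2975 genes. A count in this range need not hold the same genes. Without KO3.34 and without KO2.6, 64 and 65 of the 151 genes were called again, and Tagln and Thbs1 were not among them. Under the prefix term the changes of Peg10 (-1.19), Adssl1 (0.04), Macrod1 (0.34), Grin1 (0.58) and Krt7 (1.16), none of them called, turned direction. That term is estimated from the knockout lines only, whose ESC libraries differ in line too. Of the 30 largest rises and falls, 17 were called, and 0 to 20 were in the alternatives. The cause of each difference was not tested.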
